A study of Mus musculus with 9 samples.

Results

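The genes described here encode the proteins that dock vesicles at a target membrane and fuse them with it. They are the synaptotagmins and synaptotagmin-like proteins, the numbered syntaxins, the VAMPs, the SNAP25 family, the syntaxin-binding proteins, the complexins, the synapsins, and Nsf, Napa, Napb, Sv2a and Syp. The rule lists them by gene symbol, and 66 of the 36410 rows in the table of ribosome footprint counts matched. Footprints are pieces of mRNA that survive nuclease because a ribosome covers them, so a count reports how many ribosomes sat on the transcripts of a gene. Counts came from 3 immortalized mouse striatal cell lines of the C57/BL6 background, called control (STHdhQ7/Q7, both Htt alleles with 7 glutamines), HD-het (STHdhQ7/Q111, 1 knock-in allele with 111 glutamines) and HD-homo (STHdhQ111/Q111, both alleles with 111 glutamines). Each line was grown in 3 independent rounds, 1 library a round, and in all of them cycloheximide was given for 10 min to hold ribosomes in place. Since each genotype is a single immortalized line that divides in culture, genotype and line cannot be told apart.

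Fusion is driven by SNAREs, which are short helical proteins on both membranes. A VAMP on the vesicle zips together with a syntaxin and a SNAP25-type protein on the target, and pulls the membranes into contact. Syntaxin-binding proteins of the Sec1/Munc18 kind hold and template this bundle, complexins clamp and prime it, and synaptotagmins with their C2 domains couple it to calcium. After fusion the ATPase Nsf, with its adaptors alpha- and beta-SNAP (Napa, Napb), takes the spent bundle apart. A nerve terminal uses a dedicated set (Snap25, Stx1a, Vamp1, Vamp2, Syt1, Cplx1 and Cplx2 among them), while every cell uses other members for traffic between Golgi, endosome, lysosome and surface. In the striatum this release step carries the signals between cortical inputs and projection neurons, the cells most exposed in Huntington disease.

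Library totals ran from 22504543 to 41888701 counts, and a count of 3, the most that an observed 0 allows, stood for 0.0714 to 0.142 CPM (counts scaled to a TMM-adjusted library total of 1e6). Limits and intervals from counts cover counting error only. Differences were tested with the quasi-likelihood test of edgeR across 12678 genes that passed a filter on low counts, with adjusted p under 0.05 as the threshold. Htt itself was at 28.7, 20.3 and 6.62 CPM on average for control, HD-het and HD-homo. Of 12 markers of striatal projection neurons 6 stayed at or under 3 counts in every library, Drd1, Drd2, Pdyn, Gad1 and Bcl11b among them, while Foxp1, Ppp1r1b and Penk led what was counted of the list. Its sum was 44.0 to 50.6 CPM in control, 47.03 to 51.0 in HD-het and 67.7 to 75.3 in HD-homo libraries. The sums of several marker lists moved with the line. The summed level of 6 neural precursor markers, led by Nes, was 387 to 540 CPM in control libraries, 1119 to 1253 for HD-het and 14.7 to 16.3 for HD-homo. The sum of 8 mesenchymal markers, led by Col1a1, was 19440 to 24620, 49060 to 58020 and 15540 to 18870 CPM, and that of 8 neuroendocrine markers, led by Cpe, 332 to 429, 1224 to 1491 and 365 to 527 CPM. The sum of 9 mature neuron markers was 168 to 176, 139 to 158 and 148 to 159 CPM. The 8 oligodendrocyte lineage markers, led by Cspg4, summed to 37.7 to 70.7, 234 to 350 and 149.7 to 248 CPM. The 6 astrocyte markers summed to 2.48 to 4.09, 2.20 to 3.12 and 12.02 to 14.2 CPM in the same order, the 6 microglia markers to 4.93 to 6.65, 18.7 to 26.8 and 4.63 to 6.17, and the 5 endothelial markers to 0.602 to 0.952, 1.86 to 2.32 and 0.382 to 1.07. At or under 3 counts in every library stayed 4 of 8 neuroendocrine markers, 3 of 8 oligodendrocyte and 3 of 6 microglia markers. The same held for 2 astrocyte markers and for 1 each of the precursor, mature neuron and endothelial lists. Tmem119 led the microglia sum. Members did not all follow their sum, since Sox10 was over the filter level in HD-homo libraries only and Scg5 in no HD-het library. The part of these lists in the results below was not tested. In such bulk counts, fewer cells that use a gene and fewer footprints per cell cannot be told apart.

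Of the 66 genes, 44 passed the filter, and 2 of these, Sytl1 and Sytl4, passed it only through their high line, HD-homo, so that they had to differ. At least 1 promoter is listed for 51 of the 66 in the RefSeq table of build GRCm38.p6, which gives 300 bases (250 before and 50 after a transcript start), and for 9 of the 13 genes that were called at least 2-fold apart between the mutant lines. Shown here are the windows of 4 of these 9 genes, namely Syt11 and Syn1, which were lowest in HD-homo cells, Stx6, which was highest in HD-het cells, and Stxbp2, which was highest in HD-homo cells. Capitals mark matches on either strand to 5 motifs, which are the GC box read as GGGCGG, the CAAT box read as CCAAT, the TATA box read as TATAAA, the E-box read as CACGTG, and the first part of the element bound by the repressor REST, read as TTCAGCACC.
Syt11 (chr3:88772550-88772849, minus strand): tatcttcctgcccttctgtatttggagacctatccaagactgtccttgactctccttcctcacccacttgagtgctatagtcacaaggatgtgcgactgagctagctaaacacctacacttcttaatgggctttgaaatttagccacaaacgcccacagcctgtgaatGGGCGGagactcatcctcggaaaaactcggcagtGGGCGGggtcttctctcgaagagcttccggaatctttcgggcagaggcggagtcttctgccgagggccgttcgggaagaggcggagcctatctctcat
Syn1 (chrX:20920869-20921168, minus strand): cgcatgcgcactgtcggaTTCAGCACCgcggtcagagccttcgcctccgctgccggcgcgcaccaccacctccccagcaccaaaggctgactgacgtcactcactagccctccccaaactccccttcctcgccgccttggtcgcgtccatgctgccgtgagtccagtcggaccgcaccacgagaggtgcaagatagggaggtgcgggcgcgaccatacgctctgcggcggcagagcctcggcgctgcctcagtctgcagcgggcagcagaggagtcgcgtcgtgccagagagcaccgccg
Stx6 (chr1:155158453-155158752, plus strand): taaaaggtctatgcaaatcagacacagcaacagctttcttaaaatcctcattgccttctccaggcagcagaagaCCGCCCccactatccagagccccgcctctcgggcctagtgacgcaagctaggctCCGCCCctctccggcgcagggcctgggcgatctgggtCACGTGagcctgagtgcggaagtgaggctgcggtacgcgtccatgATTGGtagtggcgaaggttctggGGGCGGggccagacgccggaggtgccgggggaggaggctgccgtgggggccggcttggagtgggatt
Stxbp2 (chr8:3630859-3631158, plus strand): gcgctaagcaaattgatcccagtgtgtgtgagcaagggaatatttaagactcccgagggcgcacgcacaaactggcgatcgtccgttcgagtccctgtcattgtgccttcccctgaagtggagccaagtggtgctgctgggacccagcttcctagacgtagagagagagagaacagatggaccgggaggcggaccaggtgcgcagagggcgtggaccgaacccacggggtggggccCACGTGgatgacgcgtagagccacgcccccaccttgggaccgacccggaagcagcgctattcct
GGGCGG stood in 3 of the 9 windows (Stx6, Syt11, Stx1a), against 35.7% of all 32851 mouse windows of the same length. CACGTG stood in 2 of the 9 (Stx6, Stxbp2), against 7.15% of all windows. CCAAT was found in 1 of the 9 (Stx6) and 37.4% of all, and TATAAA in none of the 9 and 13.6% of all. TTCAGCACC, which was added after the Syn1 sequence had been seen, was found in Syn1 alone among the 9 and in 0.371% of all windows. The 4 windows shown held 14 (Syt11), 33 (Syn1), 20 (Stx6) and 22 (Stxbp2) CG pairs, against a median of 7 over all windows. Of the windows not shown, Stx1a and Stxbp6 held 19 each, Sytl4 held 7, and Sytl1 and Vamp8 held 5 each. These matches describe the letters of the window only.

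The general fusion machinery was read at high levels in all lines, while several defining genes of the nerve terminal were barely counted. Per kb of coding sequence, the scale on which genes can be compared, Vamp3 was the highest in control cells with 220 ± 13.4 CPM per kb (SD, n = 3). It was followed by Vamp8 at 169 ± 4.30, Napa at 140 ± 2.78, Stx12 at 113 ± 3.81 and Vamp7 at 110 ± 2.77 CPM per kb. The last pair lay within 1 SD of each other. Vamp3 (cellubrevin) and Vamp8 (endobrevin) serve endosomes and the cell surface, Stx12 is an endosomal syntaxin and Vamp7 serves late endosomes and lysosomes. These 5 genes made up 49.5% of the summed level per kb of all 66. Vamp2, the synaptobrevin of nerve terminals, was at 19.6 ± 1.99 CPM per kb and ranked 21 of the 66.

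Snap25, the SNAP of the synapse, had 1 count in 1 HD-het and 1 HD-homo library and 0 in the other 7 libraries. Syt1, the calcium sensor of fast release, never exceeded 2 counts in a library and was at 0 in all HD-homo libraries. Altogether 13 of the 66 genes stayed at or under 3 counts in every library, and 4 of these (Cplx4, Stx19, Syt10, Syt15) were at 0 throughout. The others were Cplx3, Syt2, Syt3, Syt6, Syt9, Syt16, Sytl3, Snap25 and Syt1. At this depth their differences between lines were not detectable.

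The order of the most abundant members was not the same in each line. In HD-het cells Vamp3 led with 178 ± 8.50 CPM per kb, and Napa, Stx12, Vamp7, Vamp8 and Snap23 followed between 129 and 115, each within the replicate spread of its neighbour. In HD-homo cells Vamp8 (279 ± 23.0) and Vamp3 (273 ± 29.6) were level, and Stx12 came next at 140 ± 5.04 CPM per kb. The summed CPM of all 66 genes was 1164 ± 25.7 for control, 1252 ± 47.8 for HD-het and 1275 ± 78.5 for HD-homo (SD, n = 3). The VAMPs took 40.3% of the summed level per kb for control, 34.2% for HD-het and 44.7% for HD-homo, and the syntaxins 29.7%, 34.5% and 27.5%. The synaptotagmins took only 1.55%, 2.06% and 0.485%.

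**Figure D1:**
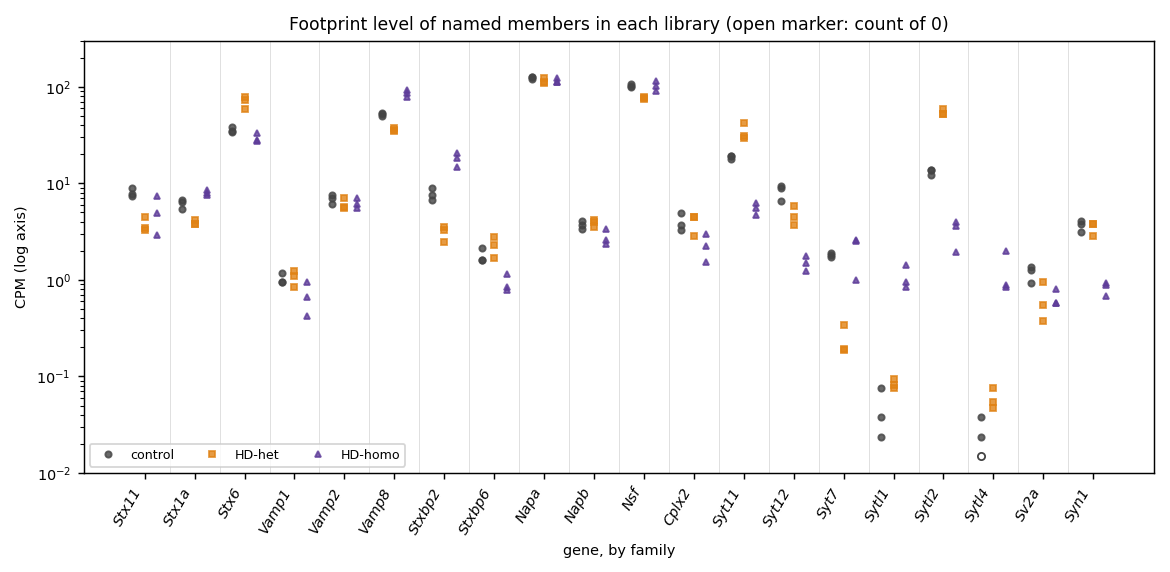
Footprint level in CPM (log axis) of 20 genes in each of 9 libraries, 1 marker per library, coloured by line and ordered by family. The 3 libraries of a line lie close together for most genes, and Sytl2, Stxbp2 and Syt11 show the lines well apart, with Sytl2 between 52.0 and 58.5 CPM in HD-het and between 1.95 and 3.95 in HD-homo cells.

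In HD-het against control, 11 of the 44 tested members were higher, beside a background of 31.0% of all genes tested, and 9 were lower, beside 29.1%. Changes reached 2-fold in 1 higher and 3 lower members, beside 20.8% of all genes in either direction. The median log2 fold change of the members was 0.06 and that of all genes 0.02. Without control replicate 1 only 6 members were called higher, and without HD-het replicate 2 only 7. Of the 20 calls 13 held whichever library was left out. The exceptions included Stx3, Stx4a, Stx8, Stxbp5, Sv2a and Vamp3.

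In HD-homo against control, 14 members were higher, beside 23.3% of all genes, and 7 were lower, beside 22.3%. Changes reached 2-fold in 3 higher members (Stxbp2, and Sytl1 and Sytl4, whose calls the filter fixed) and 5 lower ones, beside 17.2% of all genes. The median was 0.01 for the members and 0.02 for all genes. Leaving out any 1 library kept 16 of the 21 calls, the others being Cplx2, Stx18, Stx1a, Vamp3 and Vamp5. These comparisons share the control libraries.

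Between the mutant lines, HD-homo cells had 13 members higher, beside 34.6% of all genes, and 14 lower, beside 32.8%. Changes reached 2-fold in 6 higher members, Sytl1 and Sytl4 again among them, and 7 lower ones, beside 27.3% of all genes. Whichever library was left out, 22 of the 27 calls held, and Cplx2, Napb, Stx18, Syt14 and Vamp7 lost theirs in at least 1 fit. A difference among the 3 lines was found for 32 of the 44, beside 78.4% of all genes. Called in either direction were 45.5%, 47.7% and 61.4% of the tested members in the 3 comparisons in turn, and 60.1%, 45.7% and 67.5% of all genes. Sytl1 and Sytl4 are counted in these shares. Called in none of the 4 tests were 10 members, namely Napa, Stx5a, Stx7, Stx17, Stxbp3, Stxbp4, Syt17, Vamp1, Vamp2 and Vamp4. The share of all genes called in none of the 4 is not given here, so these 10 are listed as a description only.

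**Figure D2:**
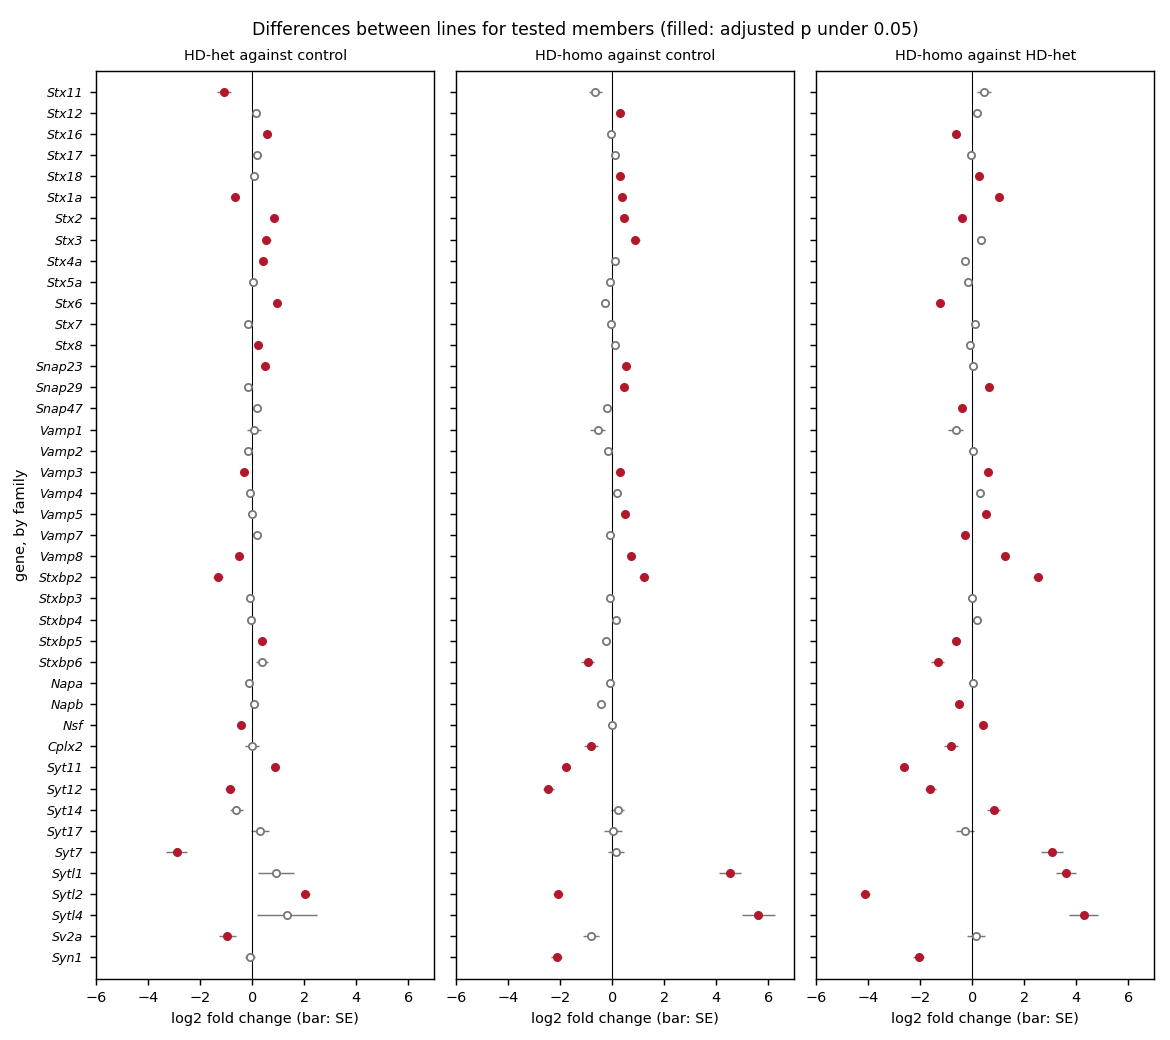
Log2 fold change (points) with its standard error (bars) for 42 of the 44 tested members in the 3 comparisons, ordered by family, filled where the adjusted p was under 0.05. Most points lie near 0, and wide differences are those of Sytl2, Syt7, Syt11, Syt12, Stxbp2 and Syn1, and of Sytl1 and Sytl4, which were tested only because they were high in HD-homo cells. Syt7 passed the filter with no HD-het library over its level.

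Among the syntaxins, the SNAREs of target membranes, 7 of 14 tested members were higher and 2 lower in HD-het than in control cells, beside 31.0% and 29.1% of all genes. In HD-homo cells 5 were higher and 1 lower, beside 23.3% and 22.3%. Called in either direction were 64.3% and 42.9%, near the 60.1% and 45.7% of all genes. Stx6, a syntaxin of the trans-Golgi network and endosomes, was at 38.5, 34.4 and 34.7 CPM in the control libraries, at 78.0, 72.4 and 59.2 in HD-het and at 32.9, 27.6 and 28.2 in HD-homo. Every HD-het library lay above all others, and every HD-homo library lay below all others. Stx6 rose in HD-het cells by 0.96 on the log2 scale (SE 0.115, edgeR adjusted p = 3.33e-05). The difference of HD-homo from control was -0.27 (SE 0.116, adjusted p = 0.0743), which passed the threshold without HD-het replicate 3 (0.03) or HD-homo replicate 1 (0.0348) and in a fit of only the 6 libraries compared (0.0473). Between the mutant lines the difference was -1.24 (SE 0.117, adjusted p = 3.30e-06). The share of Stx6 in the syntaxins' level per kb was 10.3%, 17.0% and 7.93% for control, HD-het and HD-homo.

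Stx1a, a syntaxin of the presynaptic membrane, was at 6.72, 5.38 and 6.40 CPM in control, 4.14, 3.77 and 3.78 in HD-het, and 8.01, 7.57 and 8.56 in HD-homo libraries. The lines did not overlap, with HD-het lowest and HD-homo highest. Stx1a fell in HD-het cells by 0.66 on the log2 scale (SE 0.131, edgeR adjusted p = 0.00119) and was 0.39 higher in HD-homo cells than in control (SE 0.125, adjusted p = 0.0246), a call lost without control replicate 2 (0.125) or HD-homo replicate 3 (0.0669). HD-homo cells exceeded HD-het cells by 1.05 (SE 0.130, adjusted p = 2.81e-05).

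Stx11, a syntaxin of immune cell secretion, was at 8.86, 7.40 and 7.83 CPM in control and 4.48, 3.47 and 3.31 in HD-het libraries, with HD-homo libraries scattered at 4.95, 7.38 and 2.93. It fell in HD-het cells by 1.09 on the log2 scale (SE 0.262, edgeR adjusted p = 0.00377). HD-homo differed from control by -0.65 (SE 0.254, adjusted p = 0.0573), and without HD-homo replicate 2 by -0.99 (adjusted p = 0.00349), which passed. DESeq2 (0.0365) and the fit with no filter (0.0369) also called it. Between the mutant lines the difference of 0.45 (adjusted p = 0.161) passed only without HD-homo replicate 3 (0.71, adjusted p = 0.0106). Stx2, a surface syntaxin, rose in both mutant lines, by 0.83 in HD-het (adjusted p = 6.17e-05) and by 0.44 in HD-homo cells (adjusted p = 0.00647). Stx12, the most abundant syntaxin per kb, rose in HD-homo cells by 0.32 (adjusted p = 0.00444), from 93.0 ± 3.14 to 116 ± 4.16 CPM. Stx7, of late endosomes, came next per kb in control and HD-homo cells, while Stx6 did in HD-het cells. Stx7 was at 71.1 ± 5.60, 63.3 ± 3.82 and 68.3 ± 0.571 CPM for control, HD-het and HD-homo, with no difference past the threshold. Stx5a, which serves traffic from endoplasmic reticulum to Golgi, varied least, with log2 differences from control of 0.04 and -0.10 and of -0.15 between the mutant lines.

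In the SNAP25 family the ubiquitous form Snap23 was the most abundant member, with 54.6% of the family's level per kb in control cells. Its control libraries held 55.1, 56.4 and 52.8 CPM, the HD-het libraries 75.7, 75.3 and 77.9, and the HD-homo libraries 76.1, 83.0 and 76.0. Both mutant lines lay above control in every library and overlapped with each other. Snap23 rose by 0.48 in HD-het (SE 0.073, edgeR adjusted p = 1.98e-04) and by 0.52 in the HD-homo line (SE 0.073, adjusted p = 1.55e-04). Snap29, a SNAP of endosomal and autophagic fusion, rose in HD-homo cells by 0.46 (adjusted p = 9.06e-04), from 25.8 ± 0.902 to 35.5 ± 1.67 CPM. Its gene overlaps Pi4ka, which differed from control by 0.16 in HD-homo cells (adjusted p = 0.189). Snap47 had a log2 difference of -0.39 between the mutant lines (adjusted p = 0.00408), and its gene overlaps Jmjd4.

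All 7 VAMPs, the SNAREs of the vesicle, were tested. In HD-het cells none was higher and 2 were lower than in control, and in HD-homo cells 3 were higher and none lower. The shares called were 28.6% and 42.9% in turn, beside 60.1% and 45.7% of all genes. Vamp8 was at 52.9, 50.3 and 51.9 CPM in control, at 37.5, 34.5 and 36.0 in HD-het, and at 78.2, 92.2 and 85.8 in HD-homo libraries. No library of a line overlapped with another line, with HD-het lowest and HD-homo highest. Vamp8 fell by 0.52 on the log2 scale in HD-het (SE 0.084, edgeR adjusted p = 2.77e-04) and rose by 0.72 in the HD-homo line (SE 0.083, adjusted p = 3.06e-05). The mutant lines differed by 1.25 (SE 0.084, adjusted p = 2.71e-07). Its share of the VAMPs' level per kb was 27.6% for control, 22.3% for HD-het and 35.3% for HD-homo.

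Vamp3 followed the same order, with 68.7 ± 4.17 CPM for control, 55.5 ± 2.65 for HD-het and 85.1 ± 9.23 for HD-homo (SD, n = 3). Its log2 difference from control was -0.31 in HD-het (edgeR adjusted p = 0.0144), lost without control replicate 3 (0.0506), and 0.31 in HD-homo cells (adjusted p = 0.0184), which failed without control replicate 1 (0.0539) or 2 (0.0848) or HD-homo replicate 2 (0.0557). The difference of 0.62 between the mutant lines (adjusted p = 1.30e-04) held throughout. Vamp5, which lies 4.75 kb from Vamp8 on chromosome 6 and is best known from muscle, was at 16.0 ± 1.78, 15.9 ± 2.07 and 22.6 ± 3.09 CPM. It was 0.50 above control in HD-homo cells (adjusted p = 0.0116), lost without control replicate 2 (0.057), and differed by -0.01 in HD-het cells (adjusted p = 0.958).

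The synaptobrevins did not pass the threshold in any comparison. Vamp2 was at 6.11, 7.02 and 7.49 CPM in control, 5.62, 7.10 and 5.63 in HD-het and 5.51, 6.08 and 7.10 in HD-homo libraries, all overlapping. Its log2 differences from control were -0.16 (SE 0.148, edgeR adjusted p = 0.361) and -0.15 (SE 0.148, adjusted p = 0.439). Vamp1 was at 0.955, 1.17 and 0.941 CPM in control, 1.10, 1.24 and 0.851 in HD-het and 0.946, 0.421 and 0.665 in HD-homo libraries, also overlapping. Its log2 differences from control were 0.07 (SE 0.276, adjusted p = 0.846) and -0.57 (SE 0.292, adjusted p = 0.136). Between the mutant lines Vamp1 differed by -0.63 (SE 0.294, adjusted p = 0.0766). Without HD-homo replicate 1 the last 2 comparisons passed, with adjusted p of 0.0326 and 0.0161.

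All 6 syntaxin-binding proteins were tested, and Stxbp2 (Munc18-2, of mast cell, platelet and epithelial secretion) differed most among them. Stxbp2 was at 7.60, 6.73 and 8.95 CPM in control, 3.27, 3.52 and 2.46 in HD-het, and 18.1, 20.8 and 14.6 in HD-homo libraries. The lines were fully apart, HD-het at the bottom and HD-homo on top. It fell by 1.31 on the log2 scale in HD-het (SE 0.182, edgeR adjusted p = 9.84e-05) and rose by 1.21 in the HD-homo line (SE 0.165, adjusted p = 1.15e-04). HD-homo exceeded HD-het cells by 2.52 (SE 0.180, adjusted p = 3.98e-07).

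Stxbp6 (amisyn), an inhibitor of SNARE assembly, was at 2.14, 1.59 and 1.62 CPM in control, 2.32, 2.78 and 1.70 in HD-het and 0.779, 1.15 and 0.843 in HD-homo libraries. Every HD-homo library lay below the other lines. It fell by 0.95 in HD-homo cells against control (SE 0.254, edgeR adjusted p = 0.0101) and differed from HD-het cells by -1.32 (SE 0.250, adjusted p = 6.31e-04). Stxbp3 (Munc18c) and Stxbp4 passed in no comparison, and Stxbp5 (tomosyn) was lower in the HD-homo than the HD-het line by -0.62 (adjusted p = 6.39e-04). Against control, Stxbp5 was 0.39 higher in HD-het cells (adjusted p = 0.0118), lost without control replicate 1 (0.069) or HD-het replicate 2 (0.0576). In HD-homo cells it differed from control by -0.225 (adjusted p = 0.141).

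**Figure D3:**
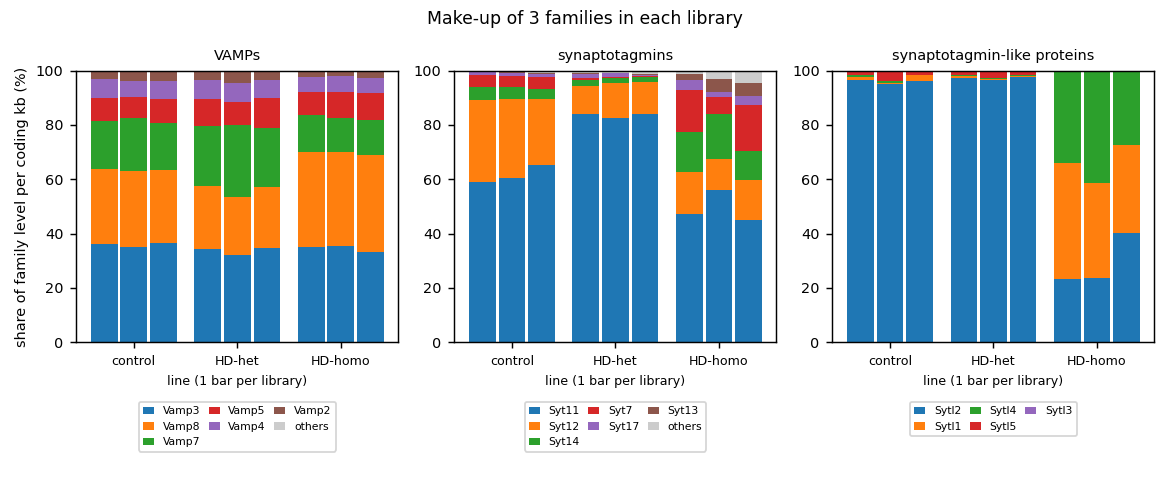
Share (%) of each gene in the summed level per coding kb of its family, as 1 stacked bar per library grouped by line, for the VAMPs, synaptotagmins and synaptotagmin-like proteins. Vamp8 takes 35.3% of the VAMPs in HD-homo cells against 22.3% in HD-het, and Sytl2 falls from 95.9% of its family in control to 29.0% in HD-homo cells, where Sytl1 and Sytl4 take the rest.

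Of the 3 disassembly genes, 1 was lower in HD-het cells than in control, beside 29.1% of all genes, and none passed in HD-homo against control. The shares called were 33.3%, 0.0% and 66.7% in the 3 comparisons in turn, beside 60.1%, 45.7% and 67.5% of all genes. Nsf was at 102, 98.8 and 108 CPM in control, 75.2, 77.2 and 78.4 in HD-het and 91.2, 116 and 103 in HD-homo libraries. HD-het lay below both other lines, which overlapped. Nsf fell by 0.42 in the HD-het line (SE 0.092, edgeR adjusted p = 0.00211), and HD-homo cells were 0.42 above HD-het (SE 0.092, adjusted p = 0.00161) and 0.00 from control (SE 0.091, adjusted p = 0.981). Napa, the general SNAP adaptor, was at 126, 121 and 125 CPM in control, 124, 109 and 111 in HD-het and 124, 112 and 111 in HD-homo libraries. The lines overlapped, with log2 differences from control of -0.12 (SE 0.080, adjusted p = 0.234) and -0.10 (SE 0.080, adjusted p = 0.315).

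Napb, its brain form, was at 4.09, 3.33 and 3.73 CPM in control, 3.57, 4.02 and 4.16 in HD-het and 2.62, 2.33 and 3.33 in HD-homo libraries. HD-homo was lowest, though its highest library nearly reached the lowest control library. The difference between the mutant lines was -0.51 (SE 0.168, edgeR adjusted p = 0.0181), lost without HD-het replicate 2 (0.0528), HD-homo replicate 1 (0.051) or HD-homo replicate 2 (0.0572). From control HD-homo differed by -0.43 (SE 0.167, adjusted p = 0.0547), which passed without HD-homo replicate 3 (0.019).

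Of the complexins only Cplx2 was tested. It was at 3.71, 3.26 and 4.89 CPM in control, 4.52, 2.83 and 4.49 in HD-het and 1.53, 2.98 and 2.22 in HD-homo libraries. HD-homo lay below control in every library and overlapped with HD-het. Its log2 difference from control was -0.83 in HD-homo (SE 0.272, edgeR adjusted p = 0.028) and -0.01 in the HD-het line (SE 0.259, adjusted p = 0.981). That call against control was lost when the fit left out control replicate 3 (0.0986), HD-homo replicate 1 (0.102) or HD-homo replicate 3 (0.0615). The mutant lines differed by -0.82 (SE 0.274, adjusted p = 0.0203), a call lost without HD-het replicate 1 (0.0744), HD-het replicate 3 (0.0636) or HD-homo replicate 1 (0.0846). Cplx1, the main complexin of inhibitory terminals, had 26 counts over the control, 19 over the HD-het and 15 over the HD-homo libraries.

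Only 5 of 17 synaptotagmins passed the filter, and 4 of them differed among the lines, which is 80.0% beside 78.4% of all genes. Syt11, a form that does not bind calcium and acts in vesicle recycling, was at 19.0, 19.1 and 18.0 CPM in control, 31.0, 29.5 and 42.0 in HD-het and 5.54, 6.19 and 4.70 in HD-homo libraries. The lines did not overlap, with HD-het on top and HD-homo at the bottom. Syt11 rose by 0.87 on the log2 scale in HD-het (SE 0.139, edgeR adjusted p = 2.68e-04) and fell by 1.77 in the HD-homo line (SE 0.152, adjusted p = 2.96e-06). The difference between the mutant lines was -2.63 (SE 0.153, adjusted p = 8.13e-08). It remained the most abundant synaptotagmin per kb in each line, with 61.6%, 83.5% and 49.5% of the family's level for control, HD-het and HD-homo. Its promoter window, shown above, held GGGCGG at 2 places.

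Syt12, which also lacks calcium binding, was at 9.40, 8.92 and 6.58 CPM in control, 3.72, 4.46 and 5.77 in HD-het and 1.75, 1.22 and 1.51 in HD-homo libraries. It was stepwise lower from control to HD-het to HD-homo, with no overlap. It fell by 0.85 in HD-het (SE 0.193, edgeR adjusted p = 0.00278) and by 2.46 in the HD-homo line (SE 0.217, adjusted p = 3.61e-06), and the mutant lines differed by -1.61 (SE 0.223, adjusted p = 6.49e-05).

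Syt7, the slow, high-affinity calcium sensor of lysosome and hormone granule fusion, was at 1.91, 1.83 and 1.73 CPM in control, 0.342, 0.193 and 0.189 in HD-het and 2.56, 0.994 and 2.53 in HD-homo libraries. HD-het lay far below the others, and HD-homo libraries straddled control. Syt7 passed the filter with no HD-het library over its level, so its entry into the tests rested on control and HD-homo libraries. Syt7 fell by 2.91 in the HD-het line (SE 0.416, edgeR adjusted p = 1.19e-04), and HD-homo exceeded HD-het cells by 3.07 (SE 0.414, adjusted p = 5.32e-05). HD-homo differed from control by 0.16 (SE 0.304, adjusted p = 0.703). Syt14 was 0.82 higher in the HD-homo than the HD-het line (adjusted p = 0.0156), lost without HD-het replicate 2 (0.0733), and Syt17 passed in no comparison. Among the untested members, Syt13 had 8 counts over the control, 8 over the HD-het and 35 over the HD-homo libraries, 4.90-fold higher in HD-homo cells than in control (95% interval 2.23 to 12.2).

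Of the 5 synaptotagmin-like proteins, Rab27 effectors that tether granules to the surface, Sytl1, Sytl2 and Sytl4 were tested. Sytl2 (Slp2) was at 13.6, 13.8 and 12.3 CPM in control, 52.0, 52.8 and 58.5 in HD-het, and 1.95, 3.63 and 3.95 in HD-homo libraries. The lines were far apart, with HD-het highest and HD-homo lowest. Sytl2 rose by 2.04 on the log2 scale in HD-het (SE 0.174, edgeR adjusted p = 3.21e-06) and fell by 2.09 in the HD-homo line (SE 0.199, adjusted p = 6.52e-06). Between the mutant lines it differed by -4.13 (SE 0.201, adjusted p = 2.17e-08).

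Sytl4 (granuphilin, of insulin granules) and Sytl1 (Slp1) showed the reverse order between HD-homo and the other lines, and both are named after their values were seen because they lay under the 2 CPM set for naming. Since both entered the tests only through HD-homo libraries, their counts are a description and no p is given. Sytl4 had 2 counts over the control, 5 over the HD-het and 103 over the HD-homo libraries, 57.7-fold higher in HD-homo cells than in control (95% interval 15.6 to 482.5) and 20.4-fold higher than in HD-het cells (8.47 to 64.2). Every HD-homo library, at 0.890, 1.99 and 0.843 CPM, lay above all libraries of the other lines, of which the highest held 0.0759. Sytl1 had 4, 7 and 90 counts, 25.2-fold higher in HD-homo cells than in control (95% interval 9.51 to 94.5), and the HD-homo libraries again lay above all others.

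Sytl5, untested, had 11 counts over the control and 33 over the HD-het libraries and none in HD-homo. With the HD-homo group set at a floor of 3 counts, it was 11.1-fold lower there than in the HD-het line. The error of the 33 HD-het counts is not in that ratio. As a share of the family's level per kb, Sytl2 took 95.9% ± 0.798 for control, 97.1% ± 0.620 for HD-het and 29.0% ± 9.64 for HD-homo, Sytl1 took 36.7% ± 5.39 and Sytl4 34.3% ± 7.02 in the last (SD, n = 3). The length used for Sytl2 was its longest coding sequence, 6462 nt, so shorter forms would raise its level per kb.

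Of the synaptic vesicle proteins Syn1 and Sv2a were tested. Syn1 (synapsin-1, which ties vesicles to actin) was at 3.82, 4.07 and 3.12 CPM in control, 2.85, 3.77 and 3.83 in HD-het and 0.918, 0.688 and 0.887 in HD-homo libraries. HD-homo lay below every other library, and the other lines overlapped. Syn1 fell by 2.13 on the log2 scale in the HD-homo line (SE 0.206, edgeR adjusted p = 7.38e-06), with -2.05 between the mutant lines (SE 0.208, adjusted p = 5.79e-06) and -0.08 in HD-het against control (SE 0.175, adjusted p = 0.705). Its gene spans that of Timp1 and overlaps Araf. Timp1 was at 573 ± 142 CPM in control and 704 ± 276 in HD-homo cells (adjusted p = 0.447), and Araf at 21.4 ± 0.379 and 21.4 ± 1.81 CPM (adjusted p = 0.986). Between the mutant lines, both overlapping genes were lower in HD-homo cells as Syn1 was, Timp1 by -1.17 (adjusted p = 0.00477) and Araf by -0.27 (adjusted p = 0.0226). Whether they share reads with Syn1 was not tested.

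Sv2a, a glycoprotein of synaptic vesicles, was at 1.38, 0.928 and 1.28 CPM in control, 0.380, 0.550 and 0.946 in HD-het and 0.807, 0.574 and 0.577 in HD-homo libraries. The highest HD-het library exceeded the lowest control library. The log2 difference was -0.95 in HD-het (SE 0.320, edgeR adjusted p = 0.0233) and -0.82 in the HD-homo line (SE 0.314, adjusted p = 0.0521), with 0.13 between the mutant lines (SE 0.347, adjusted p = 0.751). That call for HD-het failed without control replicate 1 (0.0738), control replicate 3 (0.0625), HD-het replicate 1 (0.0903) or HD-het replicate 2 (0.0833). In HD-homo cells it passed without control replicate 2 (0.0456), HD-het replicate 1 (0.0414), HD-het replicate 3 (0.0279) or HD-homo replicate 1 (0.0469), in a fit of only the 6 libraries compared (0.0338) and with at least 10 counts in every library (0.049). Syp (synaptophysin) had 9 counts over the control, 9 over the HD-het (4, 5 and 0 by library) and none over the HD-homo libraries. HD-het replicate 3, at 0, thus equalled the HD-homo libraries. With HD-homo set at a floor of 3 counts, Syp was 3.03-fold lower there than in the HD-het line. The error of the 9 HD-het counts is not in that ratio. Syn2 had 3, 21 and 6 counts, 7.91-fold higher in HD-het cells than in control (95% interval 2.36 to 41.4), and Syn3 had 10, 6 and 5.

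Related genes outside the rule were taken from 7 lists, whose counts stand beside 31.0% higher and 29.1% lower of all genes for HD-het, 23.3% and 22.3% for the HD-homo line. Of 12 other SNAREs, which work between endoplasmic reticulum, Golgi and endosome, 3 were higher and 3 lower in HD-het and 6 higher and 2 lower in HD-homo cells than in control, with none changed 2-fold. In either direction 50.0% and 66.7% of the list were called, against 60.1% and 45.7% of all genes. Of 20 tethering subunits (exocyst, HOPS, CORVET, GARP), 5 were higher and 5 lower in HD-het, and 2 higher and 4 lower in HD-homo cells (50.0% and 30.0% called). Exoc6 of the exocyst was the one changed 2-fold, at 25.8 ± 1.29 CPM for control, 13.6 ± 0.241 for HD-het and 6.07 ± 1.84 for HD-homo (-2.09 in HD-homo, edgeR adjusted p = 1.68e-06). Of 10 tested SM proteins and SNARE adaptors, 4 were higher and 2 lower in HD-het, and 3 higher and none lower in HD-homo cells.

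Of 16 tested active zone and priming genes, 3 were higher and 3 lower in HD-het and 3 higher and 7 lower in HD-homo cells (37.5% and 62.5% called), with a median of -0.45 in the latter against 0.02 for all genes. Doc2b and Unc13a passed the filter with no HD-homo library over its level, Unc13c with no control library and Rab27a with no HD-het library. All of them are in these counts and in the median. Rims2, a Rab3 effector of the active zone, was at 15.8 ± 0.163, 16.3 ± 2.18 and 1.56 ± 0.278 CPM for control, HD-het and HD-homo, a fall of HD-homo against HD-het by 3.36 on the log2 scale (edgeR adjusted p = 1.31e-08). Rab3b, a vesicle GTPase, rose in HD-homo cells by 2.35 against control (adjusted p = 3.91e-06). Of 10 tested further vesicle proteins, 2 were higher and 3 lower in HD-het and 4 higher and 4 lower in HD-homo cells (50.0% and 80.0% called), and 2 of the 10 passed the filter only through HD-homo. Syngr1 (synaptogyrin-1) fell in HD-homo cells by 2.86 against control (adjusted p = 1.20e-05), from 3.63 ± 0.334 to 0.469 ± 0.265 CPM.

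All 5 tested C2 domain membrane proteins were lower in HD-homo than in control cells, and 4 were higher and 1 lower in HD-het cells, beside 22.3% of all genes lower in HD-homo and 31.0% higher and 29.1% lower in HD-het. This list, like the others, was chosen with earlier results of these data known. It named 12 symbols, of which 11 matched a row of counts and 5 were tested. Dysf (dysferlin, of membrane repair) was at 82.2 ± 5.95, 193 ± 27.0 and 28.2 ± 1.31 CPM for control, HD-het and HD-homo, and the tethers Esyt1 and Esyt2 had the same order, with -1.61 (adjusted p = 8.13e-07) and -2.21 (adjusted p = 3.25e-08) between the mutant lines. Of 27 tested retrieval genes, 8 were higher and 9 lower in HD-het, and 4 higher and 10 lower in HD-homo cells. The shares called, 63.0% and 51.9%, were near the 60.1% and 45.7% of all genes. Picalm, a clathrin adaptor that returns VAMPs from the surface, was at 265 ± 5.04, 459 ± 51.1 and 160 ± 9.23 CPM. It rose in HD-het by 0.79 (edgeR adjusted p = 2.64e-05) and fell in HD-homo cells by 0.73 (adjusted p = 6.15e-05).

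**Figure D4:**
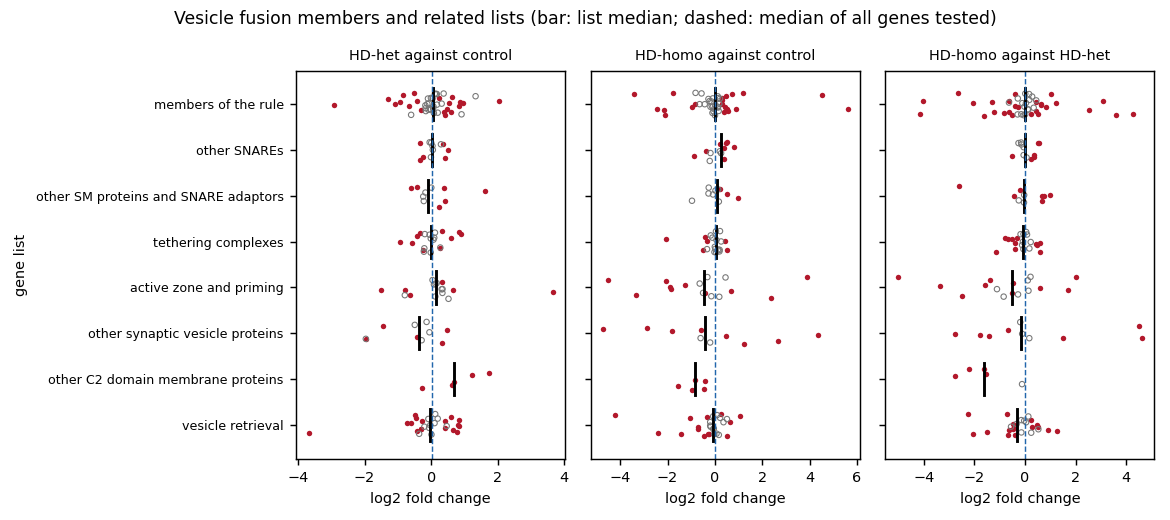
Log2 fold change of each tested gene of the fusion set and of 7 related lists in the 3 comparisons, red where the adjusted p was under 0.05, with the list median as a black bar and the median of all genes as a dashed line. The median of the 44 members lies between 0.01 and 0.06, and that of the C2 domain proteins lies at 0.69 for HD-het and -0.84 for HD-homo, each against control. The lists were chosen with earlier results of these data known.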

How the data were processed

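The authors deposited whole-number footprint counts by gene symbol, with a column for each library, neither normalized nor pooled. Per the labels, 80S monosome fragments of 26 to 32 nt were sequenced, and the submitters' processing notes name cutadapt, Bowtie 1.0.1 and build mm10. The counting program, annotation and use of strand are not given in the sources used here, so reads of overlapping genes may not be separable. Counts were fitted in edgeR 4.0.16 (limma 3.58.1, R 4.3.3) with TMM factors, filterByExpr by group and group means over all 9 libraries, and Benjamini-Hochberg adjustment ran over 12678 genes. The scripts were checked on simulated counts. Ratios of summed counts carry exact conditional 95% intervals. Coding lengths are the longest RefSeq coding sequences of GRCm38.p6, used in place of protein lengths. The members and lists were chosen with earlier results of these data known. Values per library are given for 16 genes of neuronal release and for members changed at least 2-fold with at least 2 CPM in the highest line. Some genes under this rule are not reported here. Marker lists were described only. Alternatives were RLE size factors, library totals, DESeq2 1.42.0, a fit with no filter, one with at least 10 counts per library, only the 6 libraries compared, a replicate block, a 2-fold threshold and leaving out each library in turn. Matched mRNA was not used here.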

Additional observations from a re-analysis of the deposited data

How the results depend on the processing

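Of 37 differences of named genes past the threshold, 32 stayed past it in every alternative that could be fitted, the 2-fold threshold not counted among these. The other 5 were lost in at least 1, as given above (Sv2a in HD-het, Cplx2 and Stx1a in HD-homo, Cplx2 and Napb between the mutant lines). None of the 37 changed sign. Requiring 2-fold left 1 higher and 3 lower members in HD-het, 3 higher in HD-homo, and 6 higher and 7 lower between the mutant lines. Leaving out 1 library gave 6 to 11 higher in HD-het, with 6 without control replicate 1 and 7 without HD-het replicate 2. Without division by length the 5 most abundant genes of control cells took 40.2% in place of 49.5%. Sign changes were found only in differences near 0 that did not pass. With RLE factors, DESeq2 and the filter on 10 counts these were Cplx2 in HD-het (0.009, 0.012, 0.02), and between the mutant lines Napa (-0.007, -0.007, -0.016) and Vamp2 (-0.006, -0.008, -0.015). With only the 6 libraries compared Napa was at -0.019, Vamp2 at -0.015 and Nsf in HD-homo against control at -0.003, and Nsf was at -0.018 without a filter. Leaving out 1 library spread Cplx2 (-0.141 to 0.182), Napb (-0.001 to 0.136), Syn1 (-0.186 to 0.03) and Vamp1 (-0.084 to 0.183) in HD-het, Nsf (-0.085 to 0.085) and Syt7 (-0.071 to 0.481) in HD-homo, and Napa (-0.04 to 0.067), Sv2a (-0.116 to 0.485) and Vamp2 (-0.086 to 0.142) between the mutant lines across 0. The cause was not tested. Replicate numbers were not used as pairs in the main fit. Same-numbered libraries correlated at -0.356 to 0.175 in their deviations, and differently numbered ones at -0.275 to 0.376. These values cannot show whether same-numbered libraries were made together. With the replicate block the members called went from 20 to 19 in HD-het (Stx8 lost), from 21 to 23 in HD-homo (Stx11 and Stx6 gained) and from 27 to 26 between the mutant lines (Stx18 lost), and Cplx2 in HD-het was at 0.001 and Nsf in HD-homo at -0.001. Syt7, Sytl1 and Sytl4 fell under the filter of 10 counts in every library, and at this depth 13 members could not be compared.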
